A study of Mus musculus with 12 samples.

Results

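*Deptor* and the genes of the mTOR complexes were examined in quiescent satellite cells (QSCs), the resting stem cells of skeletal muscle, with and without the Hedgehog effector *Gli3*. The genes were taken by symbol for what they encode, and they numbered 10 of the 25093 genes in the count table. They are *Deptor* and *Akt1s1*, which encode inhibitors of mTOR, *Mtor* and *Mlst8*, which encode subunits shared by both complexes, *Rptor* of mTORC1 and *Rictor* of mTORC2, *Tsc1*, *Tsc2* and *Rheb* of the switch upstream of mTORC1, and the effector kinase gene *Rps6kb1*. All 10 were counted in every QSC library. The mice carried *Pax7*-CreERT2/+ and *R26R*-YFP together with *Gli3* fl/fl in the deleted group or *Gli3*+/+ in the control group, were 3 to 4 months old, and all received tamoxifen, so that controls shared the Cre, the reporter and the drug. CreERT2 is driven from the *Pax7* locus, which limits recombination to cells that express *Pax7* when tamoxifen is given. QSCs were sorted from uninjured hindlimb muscle as mononuclear cells positive for α7-integrin and CD34 and negative for CD31, CD45, SCA1 and CD11b, a gate meant to remove endothelial cells, leukocytes and SCA1-positive mesenchymal cells, with 2 to 3 mice combined in a library, and each genotype had 3 libraries. The series also holds 6 libraries of activated satellite cells, taken 3 days after injury; these were not analysed here.

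mTOR is a kinase that couples nutrients and growth factors to cell growth. It works in mTORC1, built on Raptor (the product of *Rptor*), which promotes protein, lipid and nucleotide synthesis, and in mTORC2, built on Rictor, which phosphorylates AKT and related kinases. DEPTOR binds mTOR in both complexes and restrains it, PRAS40 (the product of *Akt1s1*) restrains mTORC1 through Raptor, and the TSC proteins keep the small GTPase Rheb, the direct activator of mTORC1, in its inactive form. In satellite cells, mTORC1 activity is known to accompany entry into an alert state between quiescence and activation. The complexes are controlled largely by protein contacts and phosphorylation, which RNA-sequencing does not measure.

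In depth, the *Gli3*+/+ libraries reached 39556784, 65340069 and 47007056 estimated counts in total, and the *Gli3*Δ/Δ libraries 51913963, 65750131 and 50417695. Levels are given as CPM, counts scaled to a common library size. The satellite cell marker *Pax7* was counted at 1052, 884 and 1036 CPM in *Gli3*+/+ and at 945, 1157 and 798 CPM in *Gli3*Δ/Δ libraries, and the groups overlapped. The leukocyte marker *Ptprc* reached at most 2.11 CPM in any library. *Gli3* itself was at 11.2, 9.71 and 9.75 CPM in *Gli3*+/+ and at 9.54, 10.5 and 6.25 CPM in *Gli3*Δ/Δ libraries, which overlapped (log2 fold change −0.22, SE 0.22, adjusted p = 0.916 from edgeR). Without *Gli3*Δ/Δ replicate 3 the log2 fold change was −0.03, and without *Gli3*Δ/Δ replicate 2 it was −0.37. These counts cover the whole gene, reads of the floxed exon alone were not analysed here, and so they do not check the deletion. *Gli3*+/+ replicate 3 stood apart from its group: across the 9592 genes with a mean of at least 10 CPM, its log2 CPM correlated at r = 0.944 with both other *Gli3*+/+ libraries, whereas those correlated with each other at 0.979 and the *Gli3*Δ/Δ libraries among themselves at 0.971 to 0.980. Values without this library are given beside results for the 10 genes and the mTOR lists that it moved.

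*Deptor* was lower in every *Gli3*Δ/Δ library than in any *Gli3*+/+ library. The gene (ENSMUSG00000022419.16) lies on chromosome 15 of GRCm38, from 55112317 to 55259271 on the plus strand. *Gli3*+/+ libraries had 391, 380 and 602 CPM of it, and *Gli3*Δ/Δ libraries 114, 216 and 153 CPM. *Gli3*+/+ replicate 3 was the highest library and *Gli3*Δ/Δ replicate 1 the lowest, and the lowest *Gli3*+/+ library was still 1.76 times the highest *Gli3*Δ/Δ library. The means were 458 ± 125 and 161 ± 51.8 CPM (SD, n = 3 libraries each), a 2.84-fold difference. On the log2 scale the fitted change was −1.51 (SE 0.27), with a 95% interval from −2.11 to −0.90. In bulk samples such as these, fewer cells that express the gene and less RNA per cell cannot be told apart.

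Whether *Deptor* passed the threshold depended on the test. By the edgeR quasi-likelihood test over all 25093 genes its adjusted p was 0.0744, just outside the limit of 0.05, and it ranked 112 by p. DESeq2 gave nearly the same log2 fold change, −1.50, with an adjusted p of 9.69e-06. limma-voom, at −1.34, gave an adjusted p of 0.0738. In edgeR, leaving out *Gli3*Δ/Δ replicate 2, the library with the most *Deptor* of its group, brought the gene past the threshold (log2 fold change −1.78, adjusted p = 0.0443), whereas leaving out *Gli3*Δ/Δ replicate 3 gave −1.47 and an adjusted p of 0.360. Without *Gli3*+/+ replicate 3 the log2 fold change was −1.26 (adjusted p = 0.0963 from edgeR). *Deptor* varied more between replicates than most genes of its level. Its biological coefficient of variation, the spread between replicates beyond counting error, was 0.245, larger than that of 88.3% of the 1052 genes within 2-fold of its mean level, whose median was 0.168. Among those 1052 genes, only 4, *Deptor* included, had a log2 fold change as low as or lower than that of *Deptor*; the others were *Mid1*, *Gm15772* and *Vcl*, named here after their values were seen. In *Gli3*+/+ QSCs *Deptor* ranked 291 of 25093 by mean CPM, and in *Gli3*Δ/Δ QSCs it ranked 1130.

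**Figure D1:**
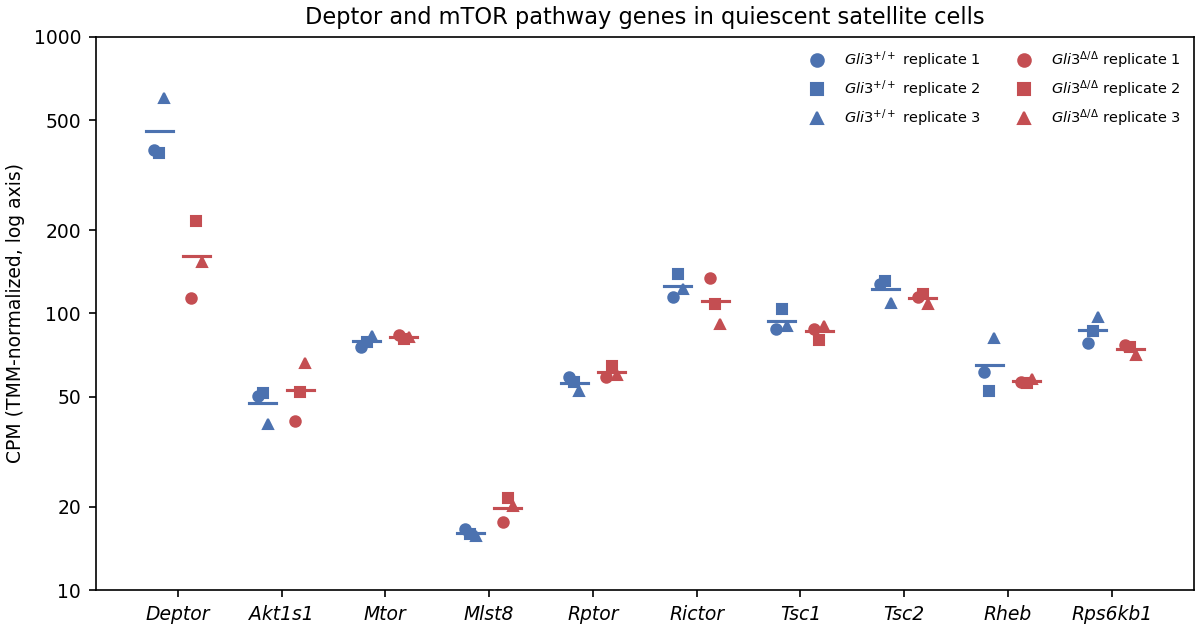
CPM of the 10 genes (log axis) in each of the 6 QSC libraries, *Gli3*+/+ in blue and *Gli3*Δ/Δ in red, with a marker shape for each replicate number and a bar at each group mean. *Deptor* has 380 to 602 CPM in *Gli3*+/+ and 114 to 216 CPM in *Gli3*Δ/Δ libraries, and the means of the other 9 genes differ by at most 1.23-fold between the groups.

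None of the other 9 genes passed the threshold by edgeR, DESeq2 or limma-voom. By edgeR 0 of the 10 genes were called, against 0.351% of all genes (88 of 25093), and *Deptor* was the only one of the 10 with an unadjusted p under 0.05, against 7.11% of all genes. By DESeq2 1 of the 10, *Deptor*, was called, against 1.53% of all genes. The groups did not overlap for 4 of the 10 genes, against 13% of all genes; 2 of them, *Deptor* and *Rps6kb1*, were lower in *Gli3*Δ/Δ QSCs (6.57% of all genes), and 2, *Mlst8* and *Rptor*, were higher (6.39% of all genes). The log2 fold changes of the 9 genes other than *Deptor* ran from −0.23 to 0.30, with a median of −0.11, and the median over all genes was −0.03. Without *Gli3*+/+ replicate 3 both medians were near 0, at −0.002 and −0.003. In that setting the log2 fold changes of *Mtor*, *Mlst8*, *Akt1s1* and *Rptor*, given below with all libraries, were 0.09, 0.28, 0.06 and 0.09. Those of *Rictor*, *Tsc1*, *Tsc2* and *Rps6kb1* were −0.19, −0.16, −0.19 and −0.14.

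*Mtor*, the catalytic subunit (chromosome 4, 148448611 to 148557683), was at 75.5, 79.0 and 83.1 CPM in *Gli3*+/+ and at 83.8, 80.7 and 82.5 CPM in *Gli3*Δ/Δ libraries. These groups overlapped, with a log2 fold change of 0.06 and a 95% interval from −0.21 to 0.32. With a library left out the change of *Mtor* ran from 0.02 (without *Gli3*+/+ replicate 1) to 0.09. *Mlst8*, the stabilizing subunit found in both complexes (chromosome 17, 24473551 to 24479078), was at 16.6, 16.0 and 15.7 CPM in *Gli3*+/+ and at 17.6, 21.5 and 20.2 CPM in *Gli3*Δ/Δ libraries. Each *Gli3*Δ/Δ library was above each *Gli3*+/+ library, by a log2 fold change of 0.30 (SE 0.15, 95% interval −0.03 to 0.63) that did not pass (adjusted p = 0.755 from edgeR). Its exons share 997 bases with *Bricd5* on the other strand.

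The other mTOR inhibitor of the set did not follow *Deptor*. *Akt1s1* (chromosome 7, 44848991 to 44855421) was at 50.2, 51.7 and 40.0 CPM in *Gli3*+/+ and at 40.9, 52.0 and 66.4 CPM in *Gli3*Δ/Δ libraries. The groups overlapped (log2 fold change 0.17, 95% interval −0.27 to 0.61), and leaving out a library moved the value between −0.03 (without *Gli3*Δ/Δ replicate 3) and 0.32 (without *Gli3*Δ/Δ replicate 1). Together, *Deptor* and *Akt1s1* transcripts summed to 441, 432 and 642 CPM in *Gli3*+/+ and to 155, 268 and 220 CPM in *Gli3*Δ/Δ libraries.

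Of the scaffold genes, *Rptor* (chromosome 11, 119602905 to 119899576) was at 58.9, 56.5 and 52.5 CPM in *Gli3*+/+ and at 59.0, 64.8 and 60.0 CPM in *Gli3*Δ/Δ libraries. The groups barely separated, with *Gli3*Δ/Δ higher (log2 fold change 0.13, 95% interval −0.15 to 0.41). *Rictor* (chromosome 15, 6708379 to 6800401), on the same chromosome as *Deptor*, was at 115, 139 and 123 CPM in *Gli3*+/+ and at 134, 108 and 91.6 CPM in *Gli3*Δ/Δ libraries. It overlapped between the groups, with a log2 fold change of −0.17 and a 95% interval from −0.55 to 0.20. With a library left out it ran from −0.33 (without *Gli3*Δ/Δ replicate 1) to −0.05 (without *Gli3*Δ/Δ replicate 3), and it was −0.09 without *Gli3*+/+ replicate 2.

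The 3 genes of the TSC-Rheb switch also overlapped. *Tsc1*, which stabilizes its partner TSC2 (chromosome 2, 28641228 to 28691167), was at 87.9, 104 and 90.3 CPM in *Gli3*+/+ and at 87.8, 80.3 and 90.3 CPM in *Gli3*Δ/Δ libraries, with a log2 fold change of −0.13 (95% interval −0.42 to 0.17). *Tsc2*, the subunit that acts on Rheb (chromosome 17, 24595816 to 24632630), was at 128, 131 and 109 CPM and at 115, 117 and 108 CPM, respectively, with a log2 fold change of −0.11 (95% interval −0.40 to 0.18). Without *Gli3*+/+ replicate 2 these values were −0.04 for *Tsc1* and −0.06 for *Tsc2*. The exons of *Tsc2* share 693 bases with *Pkd1* on the other strand. *Rheb* (chromosome 5, 24802823 to 24842624) was at 61.6, 52.3 and 81.8 CPM in *Gli3*+/+ and at 56.4, 56.3 and 57.8 CPM in *Gli3*Δ/Δ libraries. Its log2 fold change of −0.20 (95% interval −0.59 to 0.19) rested on *Gli3*+/+ replicate 3, without which it was −0.002.

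*Rps6kb1*, which encodes the S6 kinase that mTORC1 phosphorylates (chromosome 11, 86498871 to 86544805), was at 77.9, 86.4 and 97.3 CPM in *Gli3*+/+ and at 76.9, 75.8 and 71.0 CPM in *Gli3*Δ/Δ libraries. The *Gli3*Δ/Δ libraries were all lower, by a log2 fold change of −0.23 (SE 0.13, 95% interval −0.53 to 0.08) that did not pass (adjusted p = 0.834 from edgeR). Over the 6 libraries, *Rps6kb1* had the highest Pearson correlation with *Deptor* of the 9 genes (r = 0.807 of log2(CPM + 1)), and *Mlst8* and *Rptor* had the lowest (both −0.64). These values describe 6 libraries in which the difference between genotypes enters every correlation. When each library was taken as its deviation from its group mean, *Rps6kb1* correlated with *Deptor* at 0.470, *Mlst8* at 0.620 and *Rptor* at 0.045. On that measure the 9 genes ran from −0.543 (*Tsc1*) to 0.620 (*Mlst8*), with *Rheb* at 0.587.

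**Figure D2:**
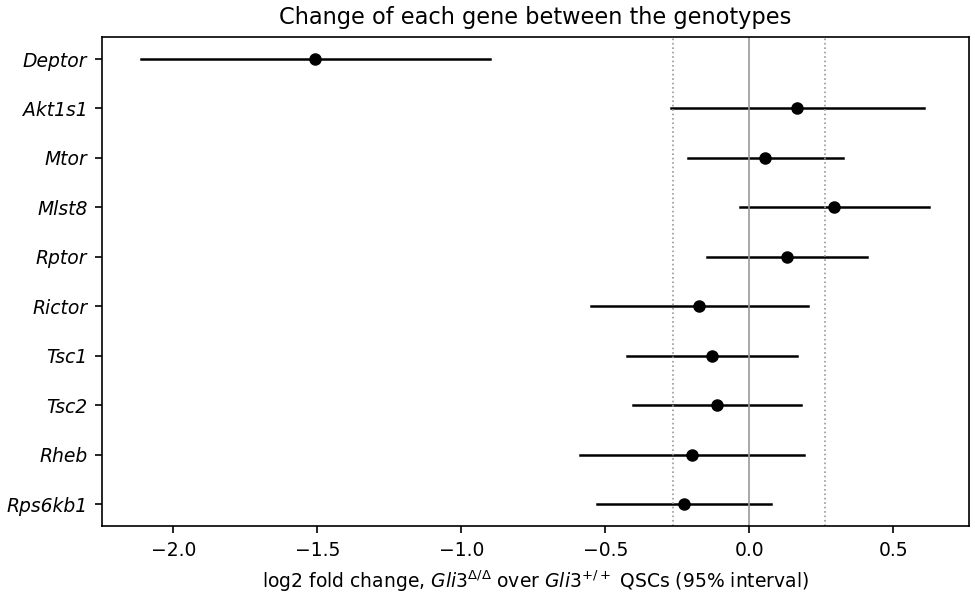
Fitted log2 fold change of each gene in *Gli3*Δ/Δ over *Gli3*+/+ QSCs (points) with its 95% interval (lines), the solid vertical line marking no change and the dotted lines the 1.2-fold limit in either direction. The interval of *Deptor*, −2.11 to −0.90, lies wholly below the lower 1.2-fold limit, and the intervals of the other 9 genes all include no change.

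To compare levels between genes, CPM were divided by the length of all annotated exons of the gene in kilobases (CPM per kb). In *Gli3*+/+ QSCs *Deptor* was the most abundant of the 10 on this scale, at 51.6 ± 14.1 CPM per kb (SD, n = 3), 6.58 times *Mtor* at 7.84 ± 0.376. Every *Gli3*+/+ library had more *Deptor* than any had of another of the 10 genes. *Akt1s1* followed at 15.4 ± 2.08 and *Tsc2* at 12.7 ± 1.19 CPM per kb, which overlapped. *Rps6kb1*, *Rheb*, *Tsc1*, *Mtor* and *Rictor* came next at 10.1, 8.45, 7.95, 7.84 and 7.41 CPM per kb, each overlapping its neighbour in the order, and *Rptor* at 4.15 and *Mlst8* at 3.63 were lowest and did not overlap. In *Gli3*Δ/Δ QSCs *Deptor* was at 18.2 ± 5.84 and *Akt1s1* at 17.3 ± 4.15 CPM per kb (SD, n = 3 each), and *Akt1s1* exceeded *Deptor* in replicates 1 and 3.

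The order depends on the length used. When CPM were divided by the longest protein-coding transcript instead, an alternative chosen after the data were seen, *Deptor* was still first in *Gli3*+/+ QSCs at 53.6 ± 14.7, and *Rheb* came next at 36.6 ± 8.47 CPM per kb (SD, n = 3 each). *Deptor* exceeded *Rheb* in each *Gli3*+/+ library, but its lowest library, at 44.5, was below the highest value of *Rheb*, at 45.9. In *Gli3*Δ/Δ QSCs on this scale, *Rheb* at 31.9 ± 0.485 and *Akt1s1* at 29.3 ± 7.04 were above *Deptor* at 18.8 ± 6.06 CPM per kb. The change of a gene between genotypes does not depend on its length.

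The amount of *Deptor* transcript relative to its binding partner was then compared within each library, where the scaling of libraries cancels. The ratio of *Deptor* to *Mtor* CPM was 5.17, 4.81 and 7.24 in *Gli3*+/+ and 1.36, 2.68 and 1.86 in *Gli3*Δ/Δ libraries. The ratio of *Deptor* to *Akt1s1* CPM was 7.78, 7.35 and 15.1 in *Gli3*+/+ and 2.77, 4.16 and 2.31 in *Gli3*Δ/Δ libraries. Both ratios were lower in all *Gli3*Δ/Δ libraries, by −1.58 and −1.67 on the log2 scale (two-sided exact permutation test, p = 0.1 for each, the smallest that 3 against 3 can give). The ratio to each of the other 7 genes was also lower in every *Gli3*Δ/Δ library than in any *Gli3*+/+ library. All 9 ratios share the same *Deptor* values and are not independent. The ratio of *Deptor* to the satellite cell marker *Pax7* was 0.371, 0.430 and 0.581 in *Gli3*+/+ and 0.120, 0.187 and 0.192 in *Gli3*Δ/Δ libraries, again without overlap.

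**Figure D3:**
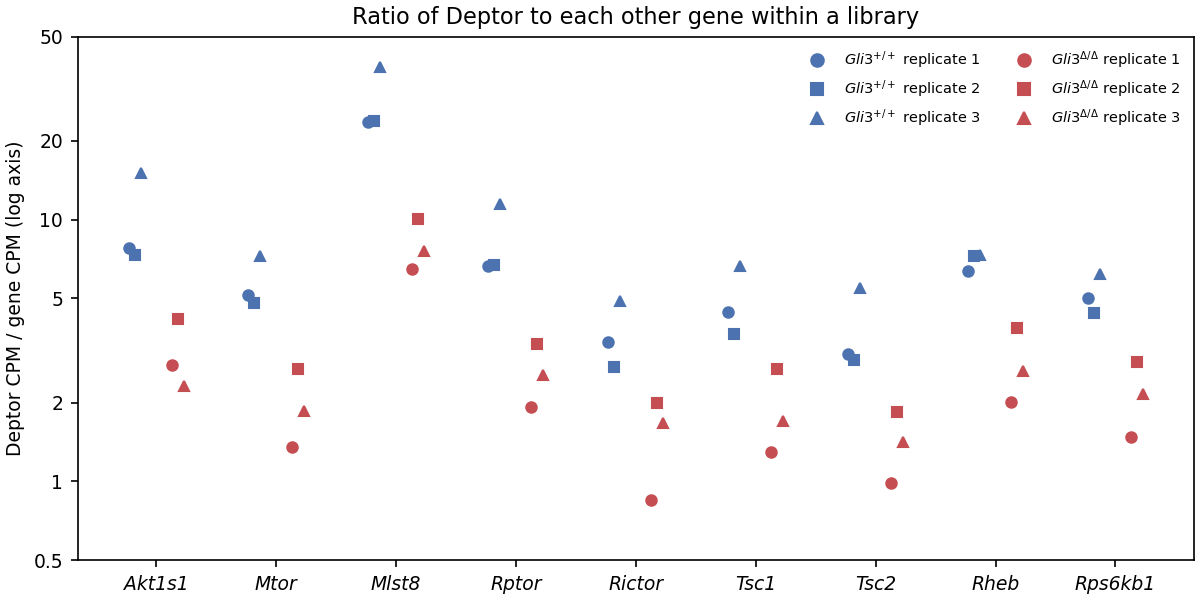
*Deptor* CPM divided by the CPM of each other gene within a library (log axis), *Gli3*+/+ in blue and *Gli3*Δ/Δ in red, with a marker shape for each replicate number. For all 9 genes the *Gli3*Δ/Δ libraries lie below the *Gli3*+/+ libraries, for *Mtor* at 1.36 to 2.68 against 4.81 to 7.24.

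A wider list of 91 other mTOR pathway genes was examined next. By edgeR, DESeq2 or limma-voom none of the 91 was called, against 0.351% of all genes by edgeR and 1.53% by DESeq2, a count near the background for a list of this length. By edgeR 1 was higher and 1 lower at an unadjusted p under 0.05, and the groups did not overlap for 6, of which 3 were higher and 3 lower in *Gli3*Δ/Δ QSCs. These counts lie below the 7.11% and 13% of all genes. The median log2 fold change of the list was −0.02, with 38 genes higher and 53 lower. Without *Gli3*+/+ replicate 3 this direction turned, to a median of 0.01 with 51 genes higher and 40 lower. Genes with a mean of at least 10 CPM turned likewise, from 4608 higher and 4984 lower to 5483 higher and 4109 lower. Their median moved from −0.01 to 0.03. Without that library 6 of the 91 genes had an unadjusted p under 0.05 by edgeR, against 8% of all genes.

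The gene with the lower p was *Mios*, a subunit of GATOR2, the complex that relays amino acid availability to mTORC1. It was at 38.9, 42.1 and 55.1 CPM in *Gli3*+/+ and at 30.2, 34.4 and 28.7 CPM in *Gli3*Δ/Δ libraries (log2 fold change −0.54, SE 0.17, adjusted p = 0.425 from edgeR). *Irs1*, an adaptor of the insulin and IGF receptors that mTORC1 signaling feeds back on, was at 116, 157 and 127 CPM in *Gli3*+/+ and at 191, 173 and 163 CPM in *Gli3*Δ/Δ libraries (0.40, SE 0.15, adjusted p = 0.623 from edgeR). Without *Gli3*+/+ replicate 3 the log2 fold change was −0.38 for *Mios* and 0.36 for *Irs1*. With all libraries neither gene overlapped between the groups, and neither passed.

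In the remaining groups of this list no gene had an unadjusted p under 0.05 with all libraries, and 1, *Prkag2* of the nutrient sensors, had without *Gli3*+/+ replicate 3 (log2 fold change −0.36 in that setting). The lowest p belonged to *Telo2*, a chaperone cofactor for mTOR and related kinases, among the 8 other complex subunits (log2 fold change −0.34, and −0.26 without *Gli3*+/+ replicate 3). Among the 13 Rag and Ragulator genes it belonged to *Lamtor4*, of the Ragulator complex that anchors Rag GTPases to lysosomes (0.47, and 0.31 to 0.62 with a library left out). *Stk11*, which encodes LKB1, the kinase upstream of AMPK, had the lowest p of the 15 genes of nutrient sensors and stress inputs (−0.25, and −0.38 to −0.17 with a library left out). Of the 20 substrates, *Pdcd4*, a translation inhibitor degraded after phosphorylation by S6 kinase, had the lowest p (0.30, and 0.13 without *Gli3*+/+ replicate 3). The median of the substrates turned from −0.05 to 0.11 without that library. The 6 genes for turnover of the DEPTOR protein include the F-box genes *Btrc* and *Fbxw11* and the kinase gene *Csnk1a1*. In this group the log2 fold changes lay between −0.08 and 0.14, with 3 genes higher and 3 lower, and that of *Btrc*, the gene with the lowest p, was 0.14. Without *Gli3*+/+ replicate 3 all 6 genes were higher, by 0.01 to 0.23, and *Btrc* was at 0.03.

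Transcripts that mTORC1 is known to induce through ATF4, HIF1 and SREBP or in nucleotide synthesis and biogenesis, 39 in all, were examined last. By edgeR and by DESeq2 0 of the 39 were called, against 0.351% and 1.53% of all genes. The groups did not overlap for 6 of the 39, 4 lower and 2 higher in *Gli3*Δ/Δ QSCs, against 13% of all genes. At an unadjusted p under 0.05 by edgeR 4 were lower in *Gli3*Δ/Δ QSCs and none was higher, against 7.11% of all genes in either direction. None of these 4 stayed under 0.05 without *Gli3*+/+ replicate 3. In that setting 4 others of the 39 had such a p, against 8% of all genes. All 4 were higher in *Gli3*Δ/Δ QSCs: *Phgdh*, *Aldh18a1*, *Sqle* and *Cad*, named after their values were seen (log2 fold changes 1.17, 0.77, 0.65 and 0.34 in that setting). The median log2 fold change was −0.14, with 13 genes higher and 26 lower.

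This direction turned for the list as a whole without *Gli3*+/+ replicate 3, but not in its HIF1 group. There the median moved from −0.19 to −0.11, and 6 of 8 genes were lower and 2 higher without that library. For all 39 transcripts the median became 0.16 without it, with 25 genes higher and 14 lower. Among genes with a mean of at least 10 CPM the median became 0.03, with 5483 higher and 4109 lower. In that setting 1 of the 39 was called, against 91 of all 25093 genes. That gene was *Phgdh*, the first enzyme of serine synthesis, at 26.1 and 19.9 CPM in *Gli3*+/+ replicates 1 and 2, 66.0 CPM in replicate 3, and 53.0, 56.1 and 45.7 CPM in *Gli3*Δ/Δ libraries (log2 fold change 1.17 without replicate 3, adjusted p = 0.0264 from edgeR). With all libraries its log2 fold change was 0.47 (adjusted p = 0.895 from edgeR). *Gli3*+/+ replicate 3 was the highest of the 6 libraries for 31 of the 39 genes (79.5%), against 33.8% of genes with a mean of at least 10 CPM. Relative to the mean of the 6 libraries, the median gene of the list was 0.38 higher on the log2(CPM + 1) scale in this library and between −0.18 and 0.01 in the other 5.

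The SREBP genes, of cholesterol and fatty acid synthesis, showed this most fully, with replicate 3 highest for 10 of 10. *Sqle*, an enzyme of cholesterol synthesis, was at 11.7, 12.5 and 85.9 CPM in *Gli3*+/+ and at 16.7, 20.4 and 19.8 CPM in *Gli3*Δ/Δ libraries. *Hmgcs1*, an earlier enzyme of the same pathway, was at 34.1, 27.7 and 77.4 CPM and at 28.4, 45.8 and 35.2 CPM, respectively. Both were named after their values were seen. For this group the median log2 fold change was −0.34 with all libraries and 0.22 without replicate 3. The amino acid transporter gene *Slc7a5* of the ATF4 group, also named after its values were seen, was at 111, 145 and 436 CPM in *Gli3*+/+ and at 168, 124 and 137 CPM in *Gli3*Δ/Δ libraries, and the median of its group moved from −0.15 to 0.11. The library with the most transcripts of this list, *Gli3*+/+ replicate 3, was also the library with the most *Deptor*. That library stood apart from its group in general, and a relation between *Deptor* and these transcripts was not tested.

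The 4 genes with an unadjusted p under 0.05 with all libraries were *Scd1*, *Slc2a1*, *Trib3* and *Hk2*. *Scd1*, which desaturates fatty acids, was at 283, 256 and 333 CPM in *Gli3*+/+ and at 242, 176 and 223 CPM in *Gli3*Δ/Δ libraries (log2 fold change −0.44, adjusted p = 0.599 from edgeR, and −0.33 without replicate 3). The glucose transporter gene *Slc2a1* was at 26.7, 28.2 and 36.1 CPM and at 25.7, 19.0 and 23.8 CPM (−0.41, adjusted p = 0.683 from edgeR, and −0.27 without replicate 3). *Trib3*, a pseudokinase gene induced by ATF4, stayed at or below 1.23 CPM (−0.98, adjusted p = 0.639 from edgeR, and −0.70 without replicate 3). The fourth, the hexokinase gene *Hk2*, was at 3.70, 3.68 and 29.8 CPM in *Gli3*+/+ and at 4.29, 2.31 and 2.50 CPM in *Gli3*Δ/Δ libraries. Its log2 fold change of −2.03 became −0.28 without replicate 3. In the group of 7 genes for biogenesis and nucleotide synthesis no gene had an unadjusted p under 0.05 with all libraries (1, *Cad*, without replicate 3, where the median of the group moved from 0.01 to 0.25), and *Ppargc1a*, a coactivator of mitochondrial biogenesis, had the lowest p (log2 fold change 0.55, and 0.32 without replicate 3).

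**Figure D4:**
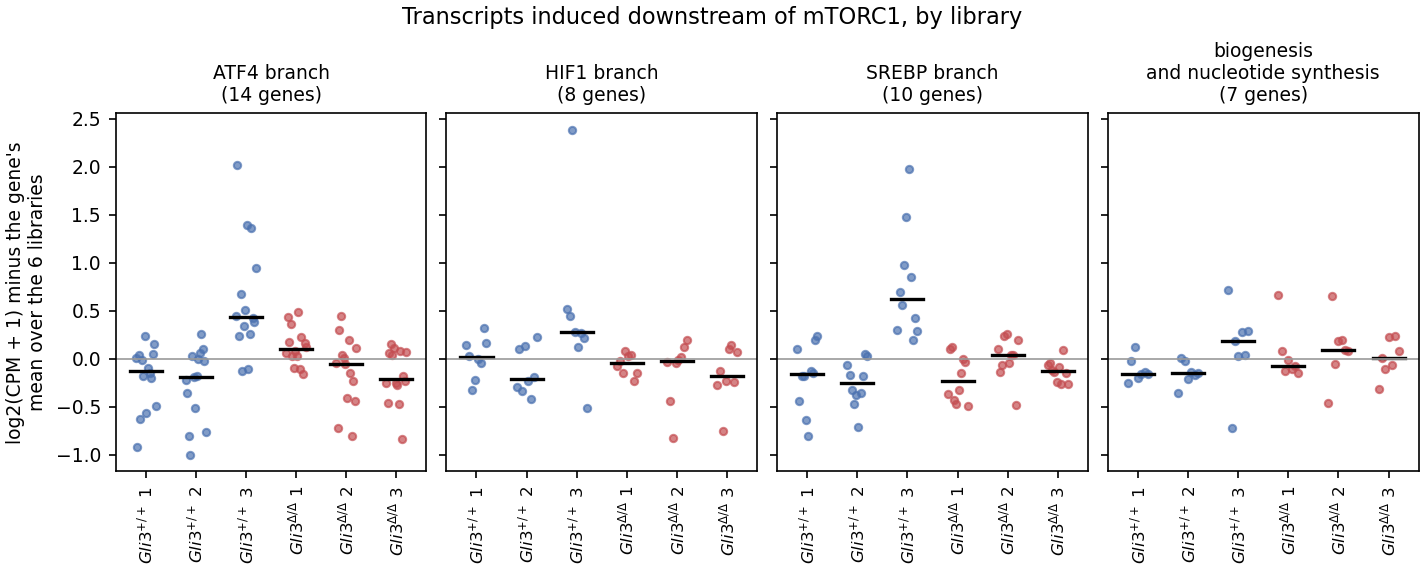
Level of each of the 39 transcripts induced downstream of mTORC1 in each QSC library, as log2(CPM + 1) minus the gene's mean over the 6 libraries, in 4 groups, *Gli3*+/+ in blue and *Gli3*Δ/Δ in red, with a black bar at the median. *Gli3*+/+ replicate 3 lies above the other libraries, with a median of 0.63 for the SREBP genes, against −0.16 and −0.25 in the other *Gli3*+/+ libraries.

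Markers of other cells that a sort of satellite cells could hold were set beside *Deptor*. Schwann cell markers, of the glia of peripheral nerve, moved with it. Their sum was 103, 78.5 and 112 CPM in *Gli3*+/+ and 43.4, 66.2 and 59.4 CPM in *Gli3*Δ/Δ libraries, and 6 of the 7 markers were lower in *Gli3*Δ/Δ QSCs without overlap, against 6.57% of all genes. By edgeR 0 of the 7 were called (0.351% of all genes), and DESeq2 called 2 (1.53% of all genes). By edgeR 5 were lower at an unadjusted p under 0.05 (7.11% of all genes in either direction), of which 3 had such a p without *Gli3*+/+ replicate 3 (8% of all genes). *Sox10*, the defining transcription factor gene, was at 4.27, 2.89 and 4.43 CPM in *Gli3*+/+ and at 1.26, 1.82 and 2.26 CPM in *Gli3*Δ/Δ libraries (log2 fold change −1.11, adjusted p = 0.337 from edgeR), and it was called by DESeq2. *Mbp* was the most abundant of the 7 and none was at 0. In each library *Deptor* CPM was between 2.58 and 5.37 times the summed CPM of the 7 Schwann cell markers, and the part of these cells in the *Deptor* result was not tested.

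For the other lists no marker was called by edgeR, against 0.351% of all genes. The satellite and myogenic markers summed to 5441, 4756 and 7318 CPM in *Gli3*+/+ and to 5439, 5541 and 5129 CPM in *Gli3*Δ/Δ libraries, with *Sdc4* the most abundant. The mural cell markers summed to 309, 261 and 509 CPM and to 245, 256 and 298 CPM, with *Acta2* the most abundant. Of these 7, 3 were lower and 1 was higher at an unadjusted p under 0.05 by edgeR (7.11% of all genes in either direction), the median change was −0.36 (log2), and 1, *Abcc9*, was called lower by DESeq2 (1.53% of all genes). Markers of fibro-adipogenic cells, the mesenchymal cells of muscle, summed to 3167, 2503 and 4512 CPM in *Gli3*+/+ and to 3925, 4078 and 4170 CPM in *Gli3*Δ/Δ libraries, with *Col3a1* the most abundant. The endothelial markers, led by *Tek*, summed to 261, 183 and 187 CPM in *Gli3*+/+ and to 157, 175 and 179 CPM in *Gli3*Δ/Δ libraries, without overlap. Of these 8, 7 were lower, 1 at an unadjusted p under 0.05 by edgeR (7.11% of all genes in either direction). Their median log2 fold change was −0.53 (−0.57 without *Gli3*+/+ replicate 3). All 6 libraries had at most 32.8 CPM of macrophage, 3.15 CPM of lymphocyte and 76.8 CPM of myofiber markers. The erythroid markers ranged from 34.0 to 374 CPM, and those of cell cycling from 62.6 to 120 CPM. The dissociation response, the early genes that tissue digestion induces, summed to 59260, 43181 and 42495 CPM in *Gli3*+/+ and to 41958, 43511 and 46516 CPM in *Gli3*Δ/Δ libraries. The gate on CD31, CD45, CD11b and SCA1 was set against endothelial, blood-derived and fibro-adipogenic cells, and the part of any that remained, or of these responses, in the *Deptor* result was not tested.

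The genes around *Deptor* on chromosome 15 were compared to see whether the difference extended along the chromosome. Of the 3 protein-coding genes on each side none was called by edgeR, against 0.351% of all genes. With so few genes this count decides nothing. Their log2 fold changes ran from −0.40 to 0.18, against −1.51 for *Deptor*. The value of −0.40 (SE 0.46) was that of *Dscc1*, at only 0.32 to 0.84 CPM, and *Col14a1* was also low, at 0.82 to 2.12 CPM. The neighbour with the most reads, *Enpp2*, an enzyme that makes lysophosphatidic acid, was at 98.8, 107 and 82.7 CPM in *Gli3*+/+ and at 68.4, 96.1 and 86.7 CPM in *Gli3*Δ/Δ libraries, which overlapped. *Mrpl13*, a subunit of the mitochondrial ribosome, was the only neighbour without overlap (13% of all genes), and it was higher in *Gli3*Δ/Δ QSCs (log2 fold change 0.18). *Gm9920*, a noncoding gene that shares 303 exonic bases with *Deptor* on the other strand, was at 0.65 to 2.25 CPM, against at least 114 CPM of *Deptor* in every library.

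**Figure D5:**
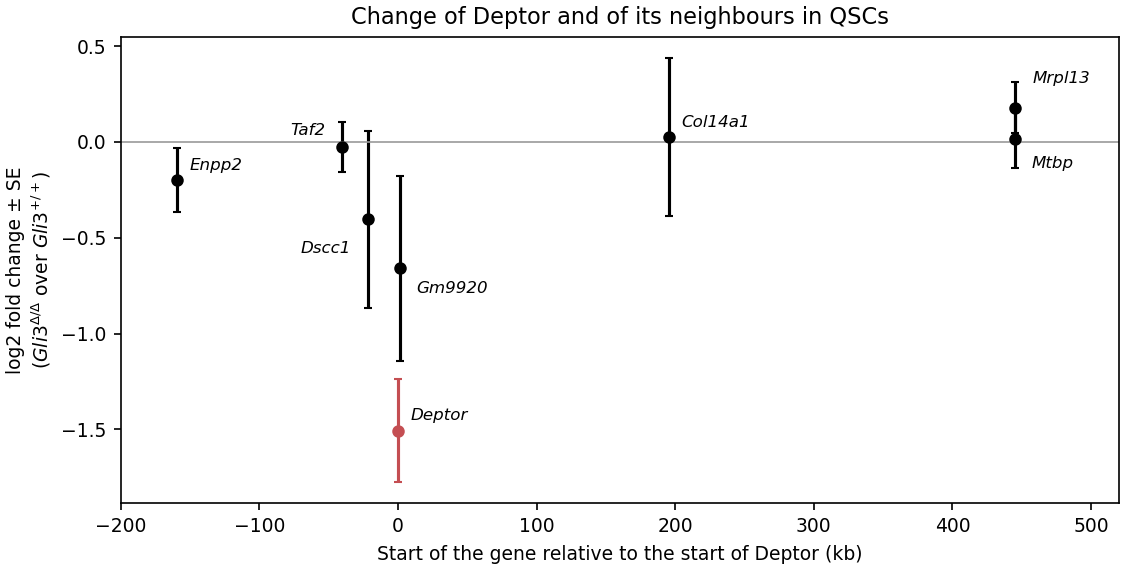
Log2 fold change ± SE in *Gli3*Δ/Δ over *Gli3*+/+ QSCs of *Deptor* (red) and of its neighbours (black), against the distance of each gene's start from that of *Deptor* in kb. *Deptor* lies at −1.51, while the 3 protein-coding genes on each side lie between −0.40 (*Dscc1*, at most 0.84 CPM in any library) and 0.18.

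Among the 9591 other genes with a mean of at least 10 CPM, the 5 whose log2(CPM + 1) followed *Deptor* most closely over the 6 libraries were *Fam171b* (Pearson r = 0.989), *Ehbp1l1* (0.985), *Ntsr2* (0.984), *Lrig1* (0.982) and *Gm47283* (0.981). *Lrig1*, a negative regulator of ERBB receptors, was at 495, 455 and 551 CPM in *Gli3*+/+ and at 350, 428 and 382 CPM in *Gli3*Δ/Δ libraries, the same order of libraries within each group as *Deptor* but over a smaller range (log2 fold change −0.37). *Gm47283* was the only 1 of these called by edgeR (log2 fold change −3.06, adjusted p = 0.00674). The 3 most opposed were *Uty* (r = −0.991), *Dctn5* (−0.977) and *Zfpm2* (−0.974), each higher in *Gli3*Δ/Δ QSCs and none called by edgeR. *Uty* is 1 of 5 sex-linked genes examined, of which 3 were higher and 2 lower in *Gli3*Δ/Δ QSCs. By DESeq2 1 of the 5, *Uty*, was called, against 1.53% of all genes. With 6 libraries and 9591 genes, such values describe the libraries and were not tested.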

How the data were processed

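Polyadenylated RNA from 20 ng of total RNA was sequenced with strand kept. Per the labels and methods, the authors quantified reads with salmon against GENCODE vM19 transcripts (GRCm38), summed them per gene with tximport, kept genes with at least 5 reads in at least 2 samples, and deposited estimated counts without normalization. Salmon shares out reads that fit several transcripts. They also deposited 4 tables of their own comparisons (fold changes and p-values), not used here. Of 12 count columns, the 6 of activated cells match no sample title and were not used, so the planned comparisons in those cells were not run.

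In R 4.3.3, the rounded counts were scaled by TMM and fitted with the quasi-likelihood test of edgeR 4.0.16, adjusting p-values by Benjamini-Hochberg over 25093 genes. Calls required an adjusted p under 0.05 and a change of at least 1.2-fold. The alternatives tried were limma 3.58.1 (voom, quality weights), DESeq2 1.42.0, its size factors in edgeR, upper quartile scaling, filterByExpr, at least 10 counts in every library, a replicate block, no minimum fold, and leaving out each library. Ratios were compared with scipy 1.17.1. Positions and exon lengths came from GENCODE vM21, which shares 99.9% of the gene identifiers. On simulated counts with 200 of the 25093 genes changed, edgeR recovered 40% of 2-fold and 90% of 4-fold changes, and DESeq2 72% and 98% with 50 unchanged genes called against 14. The changed genes were drawn only from genes above a low minimum mean CPM, and no simulated library was made to stand apart from its group.

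The members and lists were chosen with earlier results of these data known. Text names the 10 genes, *Gli3*, in each group of a list the genes with an unadjusted p under 0.05 or else the gene with the lowest p, the 5 most and 3 least *Deptor*-like genes, and defining markers; some of these are not reported here. By the methods the libraries are biological replicates, each pooling the hindlimb muscles of its own mice.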

Additional observations from a re-analysis of the deposited data

How the results depend on the processing

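*Deptor* was lower in *Gli3*Δ/Δ QSCs under all 14 alternatives, and it passed the threshold under 2 of them, DESeq2 (log2 fold change −1.50, adjusted p = 9.69e-06) and leaving out *Gli3*Δ/Δ replicate 2 in edgeR; with each library left out its log2 fold change ran from −1.78 to −1.26, and over all alternatives its adjusted p ran from 9.69e-06 to 0.360. The number of genes called was 88 by edgeR, 384 by DESeq2 and 48 with at least 10 counts in every library, and 58 (without *Gli3*Δ/Δ replicate 3) to 103 when a library was left out. Of the 10 genes 1 was called by DESeq2 and 0 to 1 when a library was left out, of the 39 downstream transcripts 0 to 1, and of the 91 other pathway genes 0 under every alternative. The log2 differences of the ratios ran from −1.83 to −1.34 for *Mtor* and from −1.91 to −1.34 for *Akt1s1* when a library was left out, where 2 against 3 libraries cannot go below p = 0.2 by the exact permutation test. Of 448 alternative values for 32 other named genes, 442 kept their side of the threshold, 5 gained a call (*Sox10* and *Uty* among them) and 1 lost it (*Gm47283*), and none that was called changed sign. Same-numbered libraries of the genotypes did not deviate together (r = −0.369, 0.001 and −0.102 over 9592 genes), and they were treated as unpaired. With 3 libraries a group, and *Gli3*+/+ replicate 3 apart from its own, these values cannot decide whether same-numbered libraries were prepared together. With the replicate number as a block 79 genes were called and *Deptor* was at −1.53 (adjusted p = 0.0871 from edgeR). With 3 libraries a group, 2-fold changes were often missed by edgeR on the simulated counts. Protein and phosphorylation were not measured.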
